A study of Mus musculus with 2 samples.

Results

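Laminins are the cross-shaped matrix proteins of basement membranes, and integrins are the membrane receptors through which cells hold on to laminins, collagens, fibronectin and other cells. The genes described here were chosen by symbol alone, as laminin chains (Lama, Lamb and Lamc) or integrin subunits (Itga and Itgb) with at least 20 unique molecular identifiers (UMIs, counted RNA molecules) over both libraries. The rule found 37 of the 32285 genes in the files, of which 11 encode laminin chains, 18 integrin alpha subunits and 8 integrin beta subunits. Their total over both libraries ranged between 67 UMIs for Lama1 and 21603 UMIs for Itgb1.

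The RNA came from thymic stroma of E2F_M11 mice, in which CRISPR-Cas9 removed 2 sites for E2F proteins in the proximal promoter of Foxn1, the transcription factor of thymic epithelium. Thymi were digested enzymatically, red cells were lysed, blood cells carrying CD45 were depleted on magnetic beads, and the remaining cells were sequenced as 2 droplet libraries (10x Genomics, 3' chemistry). Both libraries carry this deletion, the labels give neither age nor sex nor whether they came from separate animals, and the wild-type stroma with which the study compared them was not analysed here. The values below therefore compare cell types within the E2F_M11 thymus, with the libraries as replicates (n = 2), and none of them measures the effect of the deletion.

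A laminin is a trimer of an alpha, a beta and a gamma chain that is put together inside the cell before it is secreted. A trimer with the Lama3 and Lamb3 chains anchors epithelia through hemidesmosomes, where it is bound by the integrin of the Itga6 and Itgb4 subunits, whereas trimers with the Lama2 or Lama4 chain, usually with Lamb1 or Lamb2 and with Lamc1, belong to mesenchyme, muscle and vessels. Integrins are alpha and beta pairs: Itgb1 pairs with many alpha subunits, Itgb2 is used by blood cells, and pairs of Itgav with Itgb6 or Itgb8 activate latent TGF-beta. In the thymus, basement membranes line the capsule, the septa and the vessels, and thymocytes use integrins to move through the epithelial network.

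Cells were assigned to 11 classes from fixed marker genes, none of which is a laminin or an integrin, so no value of the 37 genes was used to choose the cells. The classes held 2648 of 3588 filtered cells of library 1 and 3746 of 8186 of library 2, with a median of 8727 and 1874 UMIs per filtered cell. Smallest were keratinocyte-like medullary cells, with 21 and 120 cells, mural cells, with 27 and 37 cells, and mesothelial cells, with 85 and 6 cells. Of the classified cells, 730 lay within 1.25 times of the gate's threshold, and 13 cell barcodes were shared by the filtered cells of both libraries. Thymocytes made up 16 and 325 of the cells near the threshold, from classes of 92 and 985 thymocytes. Throughout, levels are counts per 1000000 UMIs of the class (CPM), and paired values are those of library 1 and library 2.

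Each class was rich in its own markers, and most held some RNA of other cell types. Epithelial markers summed to 10218 and 9239 CPM in cortical thymic epithelial cells (cTEC), against 54.3 and 154 CPM in interstitial-type fibroblasts. Cortical markers summed to 25436 and 21476 CPM in cTEC, against 246 and 429 CPM in medullary cells (mTEC) high in Ccl21a. Mural cells also held fibroblast markers at 2962 and 3835 CPM. Keratinocyte-like mTEC of library 2 held haemoglobin and other erythroid markers at 2129 CPM and the secretory gene Wfdc2 at 5856 CPM, against 11.7 and 354.8 CPM in library 1.

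**Figure D1:**
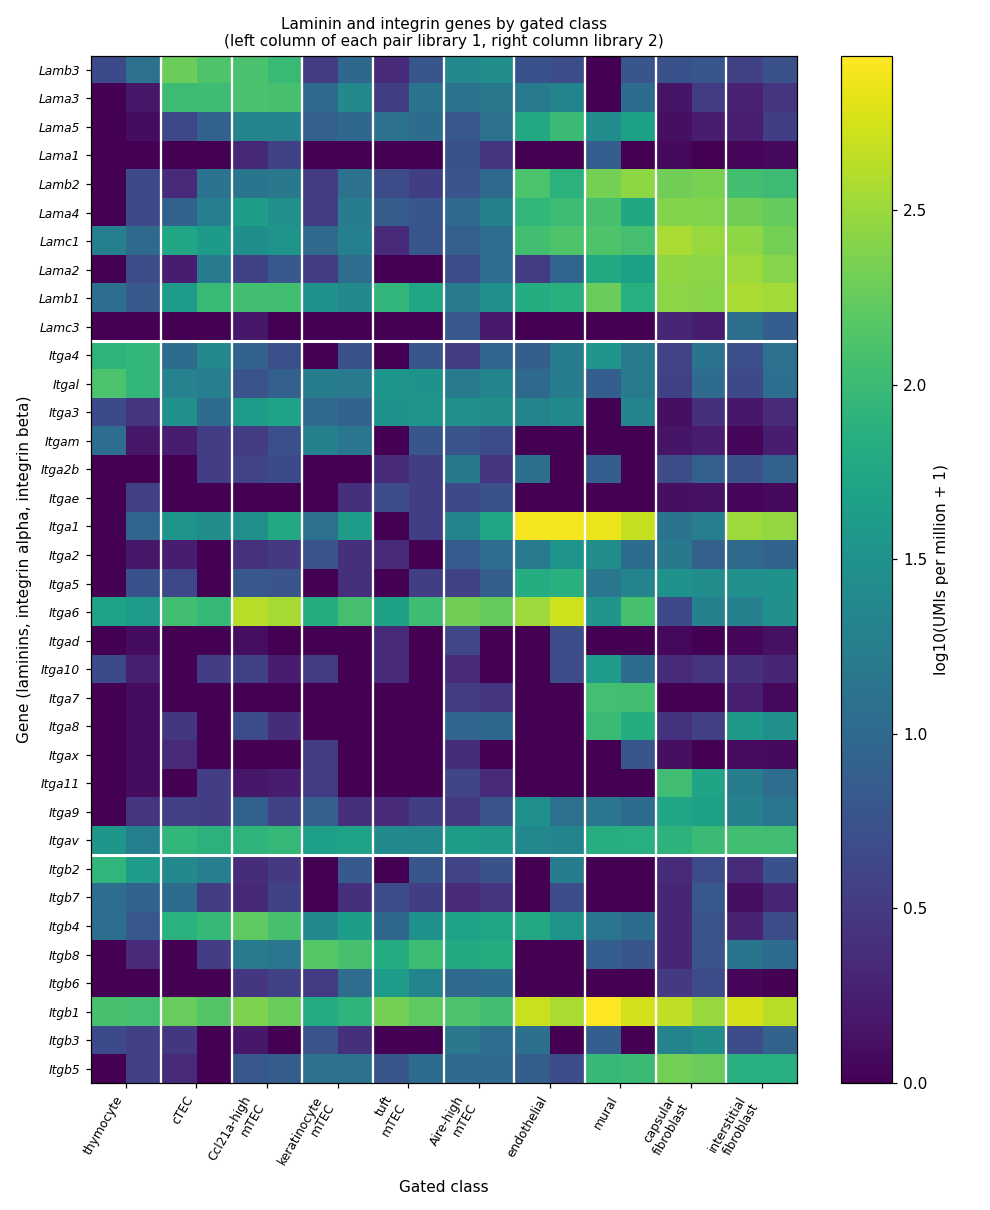
Levels of laminin and integrin genes in the 2 libraries of 10 classes, as log10 of CPM plus 1. Rows are genes, grouped as laminins, integrin alpha and integrin beta subunits, and each class has library 1 on the left and library 2 on the right. Lamb3 and Lama3 are bright in cTEC and Ccl21a-high mTEC, and Lama2, Lama4, Lamc1 and Lamb1 in fibroblasts.

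Laminin RNA was most abundant in fibroblasts and least abundant in thymocytes. The 11 laminin genes summed to 1350.4 ± 45.0 CPM in capsular-type and 1192 ± 137 CPM in interstitial-type fibroblasts (mean ± SD, n = 2, here and below). In epithelium the sum was 534 ± 30.7 CPM in Ccl21a-high mTEC and 464 ± 20.5 CPM in cTEC, but 152 ± 18.5 CPM in Aire-high mTEC, the cells that display tissue antigens, and 114 ± 14.6 CPM in tuft-like mTEC. Thymocytes had 39.3 ± 0.881 CPM. Integrin alpha RNA followed another order, with 1415 ± 156 CPM in endothelium and 1064 ± 155 CPM in mural cells at the top, while integrin beta RNA summed to 828 ± 235 CPM in mural cells and 614 ± 108 CPM in capsular-type fibroblasts, whose libraries overlapped.

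The libraries gave like levels where counts were large. Among 93 pairs of a gene and a class with at least 20 UMIs in each library, the median absolute log2 ratio of library 1 to library 2 was 0.33, and 84 pairs lay within 1 log2 unit. Highest levels fell in mural cells for 7 genes, in capsular-type fibroblasts and in endothelium for 6 each, in interstitial-type fibroblasts, Ccl21a-high mTEC and thymocytes for 4 each, in Aire-high and keratinocyte-like mTEC for 2 each, and in cTEC and tuft-like mTEC for 1 each. Some of these ranks lay under the level of 3 UMIs, which was 20.0 and 15.2 CPM in mural cells and 6.77 and 12.0 CPM in endothelium. Itgax and Lama1 ranked highest in mural cells at means of 2.53 and 3.34 CPM, and Itgad in endothelium at 2.00 CPM. For 26 of the 37 genes both libraries of the highest class lay above both libraries of the next.

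Tests used edgeR's quasi-likelihood method on UMIs summed by class and library, fitted to 13723 genes at once. Here 32 of the 37 genes passed the filter on low counts, and Lama1, Lamc3, Itgad, Itgae and Itgax did not. Calls required an adjusted p of at most 0.05 (Benjamini-Hochberg, over all 13723 genes). Log2 folds are fitted means over the classes' log levels, so they differ somewhat from ratios of the average CPM. Log2 folds of a single library, given where they differed widely from the fit of both, used a prior count of 2, which draws those of low counts towards 0, so their size is not comparable with that of the fit.

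The epithelium (cTEC, Ccl21a-high and Aire-high mTEC) and the fibroblasts differed in their laminin and integrin RNA. Lama3, Lamb3 and Lama5 were among the laminins higher in epithelium, and Lama2, Lamb2, Lama4, Lamc1 and Lamb1 were lower. Among the integrins, Itga3, Itgb4, Itga6 and Itgal were higher in epithelium, and 10 were lower, led by Itga11 and Itgb5. Itgal is a lymphocyte subunit, at 127 and 88.1 CPM in thymocytes, and thymocyte markers came to 2162 and 2127 CPM in cTEC, 192 and 661 CPM in Ccl21a-high and 222 and 661 CPM in Aire-high mTEC, against 142 and 1275 CPM in capsular-type and 212 and 1101 CPM in interstitial-type fibroblasts. Their part in the Itgal result was not tested. Of the 32 genes, 8 were higher, 15 lower and 9 not called, where 49.2% of all genes were called, 25.0% higher and 24.2% lower. Their median log2 fold was -0.67, against 0.07 for all genes.

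Lama3 encodes the alpha chain of the hemidesmosomal laminin. Its level was 79.7 and 80.003 CPM in epithelium, against 0.668 and 2.02 CPM in fibroblasts, with a log2 fold of 5.47 (SE 0.30, adjusted p = 6.37e-10). Lamb3, its beta partner, had 112.27 and 85.3 CPM in epithelium and 3.63 and 4.77 CPM in fibroblasts (log2 fold 4.16, SE 0.25, adjusted p = 1.46e-09). Epithelium and fibroblasts did not overlap for either gene, and single libraries gave log2 folds of 5.11 and 4.27 for Lama3. Lama5, an alpha chain found in many epithelia and vessels, had 9.53 and 12.955 CPM in epithelium and 0.536 and 1.64 CPM in fibroblasts.

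Mesenchymal chains ran the other way. Lama2 had 2.44 and 10.3 CPM in epithelium, against 302 and 262 CPM in fibroblasts, with a log2 fold of -6.001 (SE 0.35, adjusted p = 1.83e-09). Lama4 had 19.7 and 21.4 CPM in epithelium and 224 and 207 CPM in fibroblasts (log2 fold -3.75). The beta chain Lamb2 reached 6.33 and 11.9 CPM in epithelium and 156 and 163 CPM in fibroblasts (log2 fold -4.48, SE 0.28, adjusted p = 1.83e-09). For these chains the epithelial libraries lay far below both fibroblast libraries. The shared chains Lamb1 and Lamc1 were also lower, with log2 folds of -2.61 and -3.70, and had epithelial levels of 67.2 ± 16.4 and 28.7 ± 1.74 CPM. The 3 epithelial classes of library 2 held fibroblast markers at 821 to 1047 CPM, against 248 to 416 CPM in library 1, and the higher epithelial Lama2 value is that of library 2, and single libraries gave log2 folds of -6.73 and -4.66; the part of this RNA in the result was not tested.

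**Figure D2:**
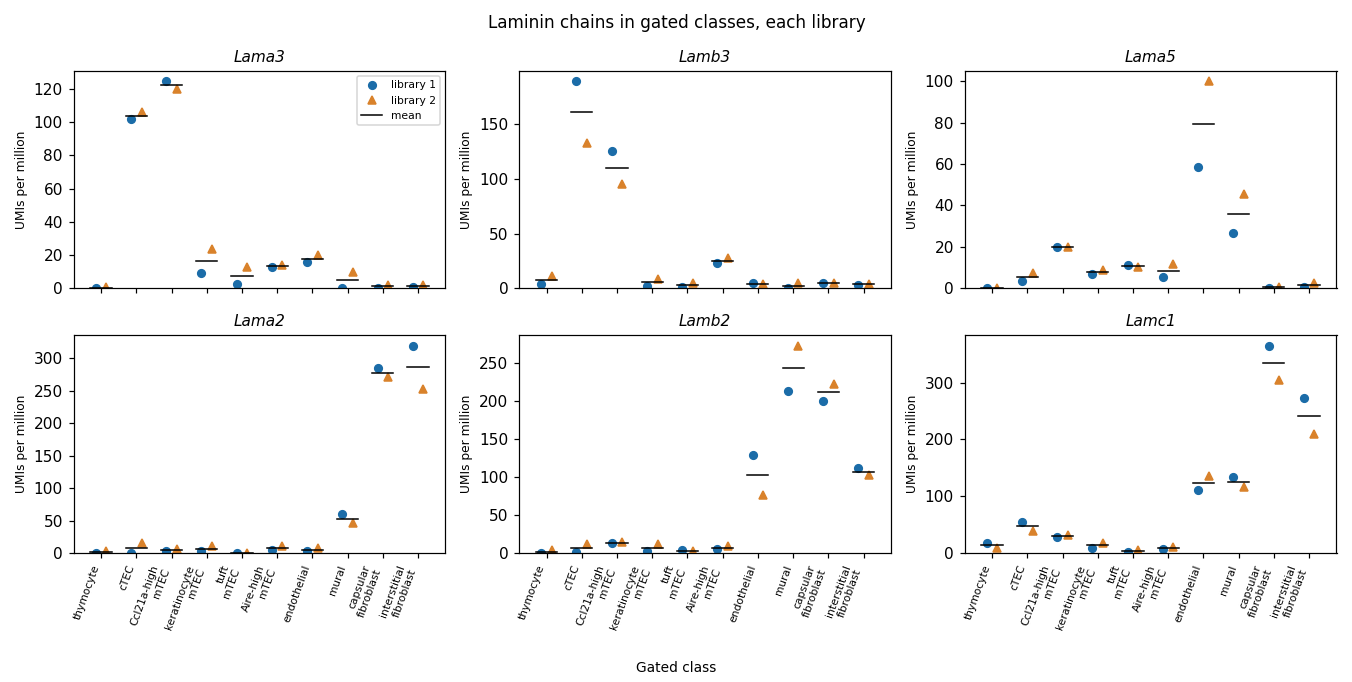
Levels (CPM) of the chains Lama3, Lamb3 and Lama5, higher in epithelium than in fibroblasts, and of the mesenchymal chains Lama2, Lamb2 and Lamc1 in 10 classes, with circles for library 1, triangles for library 2 and a line for the mean. Lama3 and Lamb3 are high in cTEC and Ccl21a-high mTEC in both libraries, and Lama2 is high in both fibroblast classes.

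Windows upstream of the RefSeq start sites (GRCm38.p6) are shown for the epithelial chain Lamb3 and the fibroblast chain Lama2, which ran in opposite directions in this comparison. The Lamb3 window is chr1:193301744-193301993 on the plus strand, and the Lama2 window is chr10:27616943-27617192 on the minus strand, each 250 bases long and written 5' to 3' in its gene's direction. RefSeq windows matched 23 of the 37 genes. Both strands were searched for TGANTCA, the letters bound by AP-1 factors, for GGGCGG, the box bound by Sp factors, and for TATAAA, the start-site element. Further searches were for TGTGGT, bound by RUNX factors, and for TTTNNCGC, bound by E2F factors. No match overlapped another in the windows shown.
Lamb3: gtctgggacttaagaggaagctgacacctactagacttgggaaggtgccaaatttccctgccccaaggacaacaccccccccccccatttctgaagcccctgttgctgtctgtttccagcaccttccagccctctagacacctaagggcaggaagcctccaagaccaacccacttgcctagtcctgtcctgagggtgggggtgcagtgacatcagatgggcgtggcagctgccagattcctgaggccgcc
Lama2: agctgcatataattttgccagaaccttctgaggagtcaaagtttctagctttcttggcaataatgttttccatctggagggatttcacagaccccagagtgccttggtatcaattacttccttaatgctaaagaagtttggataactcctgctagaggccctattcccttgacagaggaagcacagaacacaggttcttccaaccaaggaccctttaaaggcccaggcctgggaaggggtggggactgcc
Neither window held any of these letters, and the GC content was 58.8% for Lamb3 and 47.2% for Lama2. The Sp letters were in 8 of the 23 windows, against 32.9% of 27025 promoters, AP-1 letters in 1, against 6.87%, and RUNX letters in 1, against 14.2%. TATAAA and the E2F letters were in 0 of the 23, against 13.0% of promoters for TATAAA and 4.39% for the E2F letters.

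Among the receptors, Itga3, a laminin receptor subunit, had 33.5 and 28.8 CPM in epithelium and 0.427 and 1.37 CPM in fibroblasts (log2 fold 5.20, SE 0.37, adjusted p = 6.47e-09). Itgb4, the hemidesmosomal beta subunit, had 94.8 and 89.1 CPM in epithelium and 1.04 and 4.31 CPM in fibroblasts (log2 fold 5.13, SE 0.34, adjusted p = 3.64e-09). Itga6, its partner, had 243 and 209 CPM in epithelium and 10.9 and 24.1 CPM in fibroblasts (log2 fold 3.73). The groups did not overlap for any of these subunits, and single libraries gave log2 folds of 4.65 and 3.41 for Itga3, 5.38 and 4.00 for Itgb4, and 4.44 and 2.86 for Itga6. Itgb5, a vitronectin receptor subunit that pairs with Itgav, had 5.27 and 5.20 CPM in epithelium, against 137 and 127 CPM in fibroblasts (log2 fold -4.98, SE 0.21, adjusted p = 3.08e-10). Itga11, a collagen receptor of mesenchyme, had 1.21 and 1.47 CPM in epithelium and 63.1 and 30.5 CPM in fibroblasts, with a log2 fold of -5.30, and -4.72 and -3.43 in single libraries. Itgb1, the most widely paired beta subunit, was at 166 ± 24.6 CPM in epithelium and 437 ± 108 CPM in fibroblasts (log2 fold -1.48). Aire-high mTEC, 1 of the epithelial classes, had 121.7 ± 12.2 CPM, and barcodes under 1000 UMIs had 118 and 146 CPM.

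Genes that work with these proteins split in the same comparison. Of 18 basement membrane partners tested, 5 were higher and 11 lower in epithelium. Npnt, nephronectin, the ligand of Itga8, had 55.7 and 52.8 CPM in epithelium and 0.217 and 1.19 CPM in fibroblasts (log2 fold 5.98), and Bcam, a laminin receptor of another family, 40.4 and 56.7 CPM in epithelium, against 6.88 and 7.56 CPM in fibroblasts. Nid1, nidogen, which links laminin to type IV collagen, was at 14.7 and 30.035 CPM in epithelium, against 1362 and 1408 CPM in fibroblasts (log2 fold -5.86), and Ntn4, a laminin-related netrin, was also lower (log2 fold -5.32). Of 4 hemidesmosome partners, Col17a1 (log2 fold 4.00) and the plakin Dst (log2 fold 0.96) were higher, and the tetraspanin Cd151 was lower (log2 fold -0.58). Of 22 integrin adaptors, 4 were higher and 12 lower: the kindlin Fermt1 had 138 and 125 CPM in epithelium and 1.06 and 4.04 CPM in fibroblasts, and the kindlin Fermt2 84.3 and 80.3 CPM in epithelium, against 222 and 186 CPM in fibroblasts. Parvb was higher (log2 fold 2.09) and Apbb1ip lower (log2 fold -2.46). Of 19 other ligands, 5 were higher, with Cdh1 (log2 fold 5.20) and Tnc (log2 fold 3.82) in the lead, and 9 lower, led by Postn (log2 fold -6.22) and Ltbp1 (log2 fold -5.34).

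Cortical and medullary epithelium differed in some laminin chains and in several integrins. Higher in cTEC than in mTEC (Ccl21a-high and Aire-high) were Lamb3, Lamc1 and Lama3 and the leukocyte subunit Itgb2, and lower were Lama5, Itga6, Itgb5, Itgb6 and Itgb8. Of 32 genes, 4 were higher, 5 lower and 23 not called, where 19.3% of all genes were called, 9.10% higher and 10.2% lower. The median log2 fold of the 32 was -0.79, against -0.13 for all genes.

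Lamb3 had 189 and 133 CPM in cTEC and 73.8 and 61.5 CPM in mTEC (log2 fold 1.48, SE 0.26, adjusted p = 0.000946), with both cTEC libraries above both mTEC averages. Lamc1, the gamma chain of most other laminins, had 54.2 and 39.4 CPM in cTEC and 17.8 and 21.5 CPM in mTEC (log2 fold 1.44, adjusted p = 0.00188), and single libraries gave 1.73 and 0.83. Its level in barcodes under 1000 UMIs was 42.8 and 47.7 CPM, above both mTEC averages and above cTEC of library 2. Lama3 had 102 and 106 CPM in cTEC and 68.6 and 67.0 CPM in mTEC (log2 fold 1.20, adjusted p = 0.00615). The mTEC averages join unlike classes, since Lama3 was 125 and 119.8 CPM in Ccl21a-high mTEC, above cTEC, and 12.5 and 14.2 CPM in Aire-high mTEC. Lama5 had 3.31 and 7.39 CPM in cTEC, from 8 UMIs, and 12.6 and 15.7 CPM in mTEC (log2 fold -1.58, adjusted p = 0.0338), and this call was lost with DESeq2, without the filter on low counts, without the library block (adjusted p = 0.0624) and with cells low in blood markers.

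Itgb5, Itgb6 and Itgb8, beta subunits that pair with Itgav, were at or near 0 in cTEC. Itgb8 had 1 UMI in cTEC, against 483 UMIs in mTEC, where its level was 38.9 and 39.1 CPM, and the ratio of mTEC to cTEC per UMI sequenced was 80.4 (95% interval 14.4 to 3182, counting error only). Itgb6 had 0 UMIs in cTEC and 72 in mTEC, and was at least 4.00-fold lower, taking 3 UMIs over both cTEC libraries as the limit (adjusted p = 0.0308, and 0.0635 with cells low in blood markers). Itgb5 had 2 UMIs in cTEC and 88 in mTEC (ratio of mTEC to cTEC 7.32, 95% interval 1.97 to 61.4). Itgav, the alpha subunit with which all 3 pair, was 88.6 and 76.4 CPM in cTEC, a level close to that of Ccl21a-high mTEC. Itga6 had 110.4 and 91.2 CPM in cTEC and 309.8 and 268 CPM in mTEC (log2 fold -1.55, adjusted p = 0.0123), whereas its partner Itgb4 was not called, at 74.7 and 93.6 CPM in cTEC, against 105 and 86.8 CPM in mTEC.

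Itgb2, which pairs with Itgal in lymphocytes, had 24.5 and 17.3 CPM in cTEC and 2.13 and 3.22 CPM in mTEC (log2 fold 3.08, SE 0.64, adjusted p = 0.00366). Of the thymocyte markers given above, 13 and 12 of 13 were detected in cTEC, at a higher sum than in both mTEC classes. With cells low in blood markers, 44 and 24 cTEC remained and the log2 fold of Itgb2 was 3.23 (adjusted p = 0.00845), and single libraries with all their cTEC gave 2.98 and 1.98. Cells low in blood markers could still hold up to 10 such UMIs per 10000, so the part of thymocyte RNA in this result was not tested. In thymocytes themselves Itgb2 was 84.5 and 40.0 CPM, and in barcodes under 1000 UMIs it was 24.1 and 27.8 CPM. Partner genes higher in cTEC included Npnt, at 135 and 116 CPM in cTEC and 16.2 and 21.3 CPM in mTEC, Egflam, which binds dystroglycan (log2 fold 3.08), Dst (log2 fold 2.25) and Cd151 (log2 fold 1.09), while Col17a1 had 2 UMIs in cTEC and 344 in mTEC. In number, 3 of 18 basement membrane partners were higher and 0 lower by edgeR, with 3 lower at an unadjusted p under 0.05 and 0 lower with DESeq2. Of 22 adaptors, 2 were higher (Parvb and the blood-cell kindlin Fermt3, log2 folds 2.17 and 1.45) and 2 lower (Ptk2b and Rap1a, log2 folds -1.78 and -0.73). Among 19 other ligands 4 were higher and 2 lower, with Vcam1, the ligand of Itga4 pairs, at 675 and 513 CPM in cTEC and 268 and 224 CPM in mTEC, Tnc higher (log2 fold 1.45), and Thbs1 and Tgfb3 lower (log2 folds -3.38 and -2.17).

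Within the medulla, Ccl21a-high mTEC, which attract T cells and resemble basal epithelium in their keratins, made more laminin RNA than Aire-high mTEC. Of 9 laminins 6 were higher (Lama3, Lamb1, Lamb3, Lamc1, Lama4 and Lama5) and 0 lower by edgeR, with 0 lower at an unadjusted p under 0.05 and 0 with DESeq2. Of the integrins, Itgb4 and Itgav were higher and 7 were lower. Over the 32 genes, 8 were higher and 7 lower, where 33.1% of all genes were called, 12.0% higher and 21.1% lower, and the median log2 fold was 0.30, against -0.11 for all genes.

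Lama3 had 125 and 119.8 CPM in Ccl21a-high mTEC and 12.5 and 14.2 CPM in Aire-high mTEC (log2 fold 2.99, SE 0.34, adjusted p = 1.15e-05). Lamb1 had 111.05 and 111.38 CPM in Ccl21a-high and 14.8 and 29.0 CPM in Aire-high mTEC (log2 fold 2.21, adjusted p = 0.000463). Lamb3 had 125 and 95.2 CPM in Ccl21a-high and 22.8 and 27.8 CPM in Aire-high mTEC (log2 fold 1.95, adjusted p = 0.000214). The classes did not overlap for any of these chains. Lamc1 (log2 fold 1.67), Lama4 (log2 fold 1.36) and Lama5 (log2 fold 1.19) followed, and Lama4 was not called with DESeq2 (adjusted p = 0.0927) and had log2 folds of 1.96 and 0.46 in single libraries. Barcodes under 1000 UMIs held Lamc1 at 42.8 and 47.7 CPM, above its 30.5 ± 2.76 CPM in Ccl21a-high mTEC. They held Lama4 at 37.5 and 47.5 CPM, against 35.9 ± 9.91 CPM in Ccl21a-high mTEC. Lama3, Lamb1, Lamb3 and Lama5 in Ccl21a-high mTEC lay above their levels in those barcodes in both libraries. Itgb4 had 161 and 121 CPM in Ccl21a-high and 48.6 and 53.1 CPM in Aire-high mTEC (log2 fold 1.30, adjusted p = 0.0137), and Itga6, not called, had 421 and 359.5 CPM in Ccl21a-high, against 199 and 177 CPM in Aire-high mTEC.

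The integrins lower in Ccl21a-high mTEC belonged to several families. Itgb8 had 15.8 and 13.4 CPM in Ccl21a-high and 62.0 and 64.8 CPM in Aire-high mTEC (log2 fold -2.28, SE 0.38, adjusted p = 0.000323). Itgb3, the beta subunit of the platelet fibrinogen receptor, had 2 UMIs in Ccl21a-high and 84 in Aire-high mTEC (ratio of Aire-high to Ccl21a-high 32.5, 95% interval 8.73 to 273). Itga2, a collagen receptor, had 1.66 and 2.11 CPM in Ccl21a-high and 6.16 and 10.5 CPM in Aire-high mTEC (log2 fold -2.32). Itgb6 had 1.94 and 2.82 CPM in Ccl21a-high and 9.23 and 9.88 CPM in Aire-high mTEC (log2 fold -2.25), and was not called with DESeq2 (adjusted p = 0.0503) or with the stricter gate (adjusted p = 0.11). Itga7 had 0 UMIs in Ccl21a-high and 14 in Aire-high mTEC, and was at least 3.62-fold lower, a call lost with DESeq2, with the stricter gate and with cells low in blood markers. Macrophage markers summed to 9.42 and 4.23 CPM in Ccl21a-high and 150.4 and 140.2 CPM in Aire-high mTEC, and neutrophil markers to 9.14 and 14.8 CPM in Ccl21a-high and 173 and 119.8 CPM in Aire-high mTEC. With cells low in blood markers, which could still hold up to 10 such UMIs per 10000, Itgb3, Itga2, Itgb8 and Itgb6 remained called. The part of blood-cell RNA in these results was not tested.

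**Figure D3:**
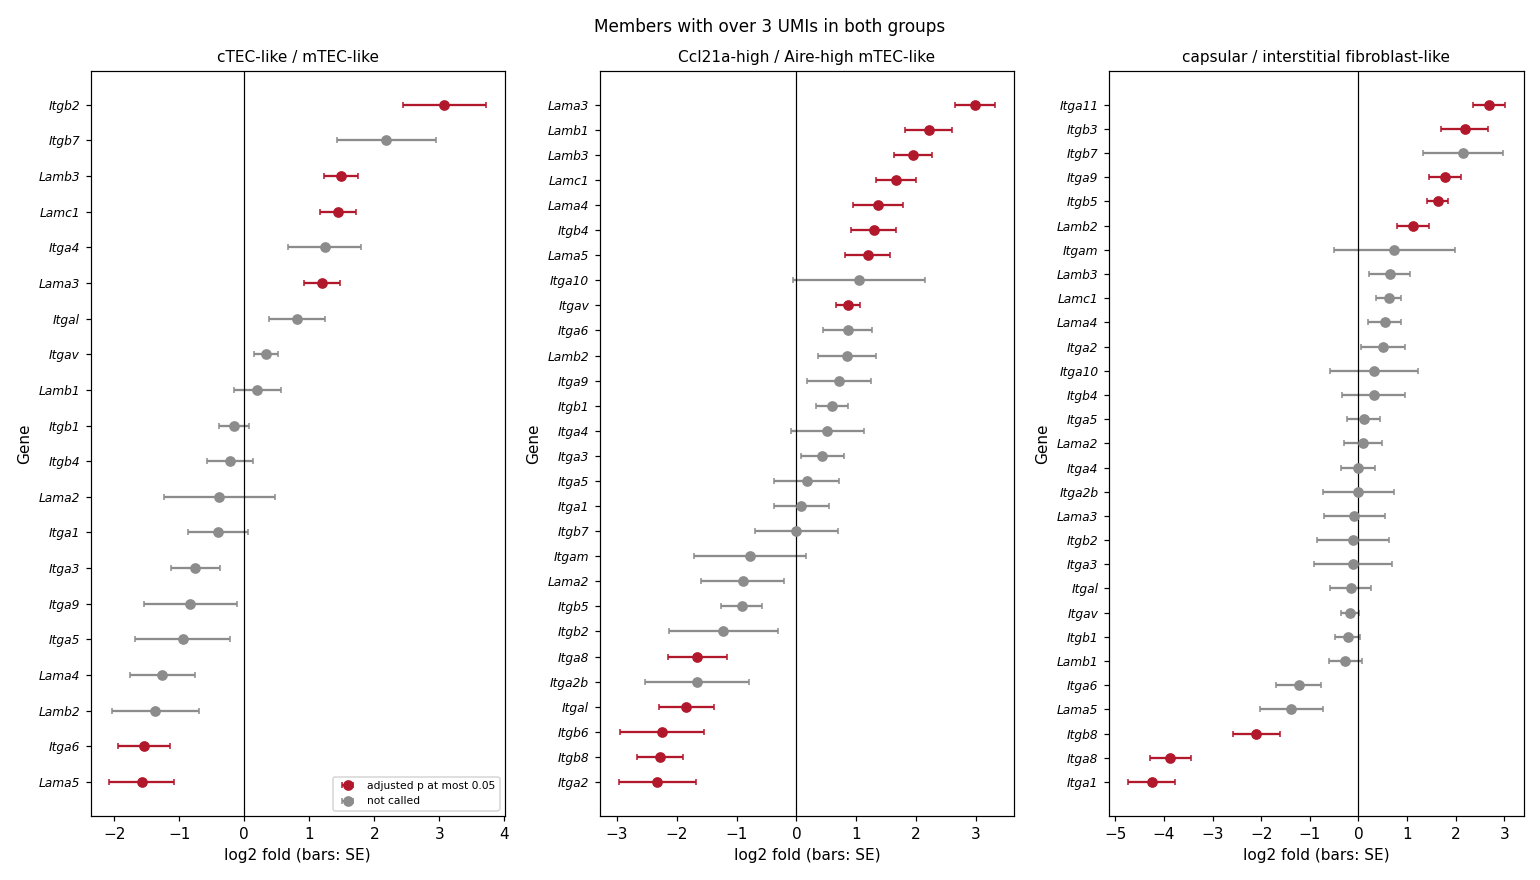
Log2 folds with SE of genes with over 3 UMIs in both groups for cTEC over mTEC, Ccl21a-high over Aire-high mTEC and capsular-type over interstitial-type fibroblasts, in red where the adjusted p was at most 0.05. Laminins fill most of the upper end in the middle panel, and Itga1 and Itga8 lie at the lower end in the right panel.

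Partner genes in this comparison included 8 higher and 1 lower of 18 basement membrane partners. Col18a1, whose product sits in epithelial and vascular basement membranes, had 123 and 129.7 CPM in Ccl21a-high and 15.2 and 25.3 CPM in Aire-high mTEC, and Bcam 90.0 and 109 CPM in Ccl21a-high, against 15.4 and 19.8 CPM in Aire-high mTEC. Egflam was lower, with 4 UMIs in Ccl21a-high and 59 in Aire-high mTEC. Cd151 (log2 fold 2.42) and Dst (log2 fold 1.48) were higher and Col17a1 lower (log2 fold -1.40) among 4 hemidesmosome partners. Of 22 adaptors 5 were higher, led by the focal adhesion gene Zyx (log2 fold 2.15) and Fermt2 (log2 fold 2.02), and 4 lower, led by Cib1 (log2 fold -2.16) and Ptk2b (log2 fold -1.87). Of 19 other ligands 1 was higher, Tgfb3 (log2 fold 1.43), and 4 lower. Spp1, osteopontin, had 3 UMIs in Ccl21a-high and 1400 in Aire-high mTEC, and Tnn had 0 UMIs in Ccl21a-high and 65 in Aire-high mTEC, at least 16.8-fold lower.

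The mimetic classes, medullary cells that take on features of peripheral tissues, were each set against Aire-high mTEC. In keratinocyte-like mTEC, 5 of 32 genes were lower and 0 higher by edgeR, with 1 higher at an unadjusted p under 0.05 and 0 with DESeq2, where 19.7% of all genes were called, 9.50% higher and 10.2% lower. The median log2 fold was -0.56, against -0.12 for all genes. Lamb3 had 2.35 and 8.84 CPM in keratinocyte-like and 22.8 and 27.8 CPM in Aire-high mTEC (log2 fold -2.15, SE 0.57, adjusted p = 0.0136). Itga3 had 9.40 and 7.37 CPM in keratinocyte-like and 29.3 and 27.8 CPM in Aire-high mTEC (log2 fold -1.97, adjusted p = 0.0246). Itga8 had 0 UMIs in keratinocyte-like and 53 in Aire-high mTEC and was at least 3.00-fold lower. Itgb1 had 63.4 and 81.0 CPM in keratinocyte-like and 130.3 and 113 CPM in Aire-high mTEC (log2 fold -0.86, adjusted p = 0.0429), and lost its call without the filter, without the library block (adjusted p = 0.0839) and with the stricter or the looser gate. Its level in barcodes under 1000 UMIs was 118 and 146 CPM.

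Itgb8 was highest in keratinocyte-like mTEC of all 10 classes, at 146 and 121 CPM, against 62.0 and 64.8 CPM in Aire-high mTEC, a difference that was not called (adjusted p = 0.0894). Itgam, a leukocyte alpha subunit, was also at its highest there, at 18.8 and 13.3 CPM from 8 and 9 UMIs, against 4.93 and 3.70 CPM in Aire-high mTEC (adjusted p = 0.252). Neutrophil markers summed to 296 and 110.5 CPM in keratinocyte-like and 173 and 119.8 CPM in Aire-high mTEC, but Ltf, which secretory epithelium also expresses, gave 289 and 110.5 CPM of the sum in keratinocyte-like and 14.8 and 1.23 CPM in Aire-high mTEC. The syndecan Sdc1 had 322 and 348 CPM in keratinocyte-like and 17.2 and 23.5 CPM in Aire-high mTEC, and was the most raised of 4 basement membrane partners called higher, with Ntn4 next (log2 fold 3.01) and Npnt and Col4a1 lower (log2 folds -2.11 and -1.48), 2 of 18 in all. Of 4 hemidesmosome partners Cd151 and Plec were higher (log2 folds 1.49 and 1.04) and Col17a1 lower (log2 fold -2.92). Of 22 adaptors 1 was higher (Zyx, log2 fold 0.96) and 4 lower, led by Fermt1 (log2 fold -2.28) and Cib1 (log2 fold -1.37). Of 19 other ligands 1 was higher (Cdh1, log2 fold 1.54) and 5 lower, with Madcam1, the ligand of the Itga4 and Itgb7 pair, at 0 UMIs in keratinocyte-like and 191 in Aire-high mTEC, and Spp1 at 17 UMIs in keratinocyte-like and 1400 in Aire-high mTEC.

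Integrin alpha RNA summed to 180.2 ± 48.7 CPM in tuft-like mTEC, the lowest mean of the 10 classes, with libraries overlapping those of keratinocyte-like mTEC, at 219 ± 46.9 CPM. Of 32 genes 10 were lower than in Aire-high mTEC and 1, Lamb1, was higher, where 28.2% of all genes were called, 10.3% higher and 17.9% lower, and the median log2 fold was -1.47, against -0.22 for all genes. Lamb1 had 84.9 and 53.0 CPM in tuft-like and 14.8 and 29.0 CPM in Aire-high mTEC (log2 fold 1.47, SE 0.43, adjusted p = 0.0168), and single libraries gave 2.20 and 0.51. Barcodes under 1000 UMIs held Lamb1 at 48.2 and 85.4 CPM, above tuft-like mTEC in library 2. Lamb3 had 3 UMIs in tuft-like and 156 in Aire-high mTEC (ratio of Aire-high to tuft-like 9.49, 95% interval 3.19 to 46.5). Itga1, a collagen receptor, had 1 UMI in tuft-like and 184 in Aire-high mTEC (ratio 33.6, 95% interval 5.95 to 1334). Itgb3 had 0 UMIs in tuft-like and 84 in Aire-high mTEC, at least 5.11-fold lower, and Itga8 had 0 UMIs in tuft-like and 53 in Aire-high mTEC, at least 3.22-fold lower. Itga2 had 1 UMI in tuft-like and 47 in Aire-high mTEC, and was not called with DESeq2 (adjusted p = 0.0577).

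Itgb6 stood highest in tuft-like mTEC, at 40.6 and 20.2 CPM, against 9.23 and 9.88 CPM in Aire-high mTEC, and was not called (adjusted p = 0.103). Itgal was 34.2 and 30.3 CPM in tuft-like mTEC, the level next below that of thymocytes, against 15.6 and 20.4 CPM in Aire-high mTEC (adjusted p = 0.324). Barcodes under 1000 UMIs held more Itgal, at 56.2 and 59.0 CPM. Of 18 basement membrane partners 2 were higher, the collagen Col4a4, at 100.1 and 85.9 CPM in tuft-like and 2.05 and 1.23 CPM in Aire-high mTEC, and the syndecan Sdc4, at 863 and 1384 CPM in tuft-like, against 123 and 93.9 CPM in Aire-high mTEC. Lower there were 4, led by Egflam, with 1 UMI in tuft-like and 59 in Aire-high mTEC, and Col4a1 (log2 fold -2.93). Dst was higher (log2 fold 1.69) and Col17a1 lower (log2 fold -2.89) among 4 hemidesmosome partners. Of 22 adaptors 2 were higher, Rsu1 and the focal adhesion kinase Ptk2 (log2 fold 1.02 each), and 5 lower, led by Fermt1 (log2 fold -3.28) and Cib1 (log2 fold -1.94). Tnc was the 1 of 19 other ligands called higher (log2 fold 1.74), and 7 were lower, with Madcam1 at 0 UMIs in tuft-like and 191 in Aire-high mTEC and Spp1 at 1 UMI in tuft-like and 1400 in Aire-high mTEC.

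Itga6 was higher in endothelium than in mural cells, and Itga7, Itga8, Itgb5 and Itgav were lower. Those were 1 higher and 4 lower of 32 genes, where 7.36% of all genes were called, 3.18% higher and 4.18% lower, and the median log2 fold was 0.17, against 0.01 for all genes. Of 9 laminins, edgeR called 0, with 1 higher and 2 lower at an unadjusted p under 0.05 and 0 with DESeq2. Depth limits this comparison, since 3 UMIs stood for 20.0 and 15.2 CPM in the mural sums.

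Itga7, a laminin receptor of muscle, had 0 UMIs in endothelium and 39 in mural cells, at 113 and 111.16 CPM, and was at least 25.9-fold lower (adjusted p = 0.00480, and 0.123 with DESeq2). Itga8, the nephronectin receptor, had 0 UMIs in endothelium and 28 in mural cells, at 100.1 and 65.7 CPM, and was at least 18.6-fold lower (adjusted p = 0.000491). In the other 8 classes fitted Itga7 reached at most 2.26 and 1.85 CPM, in Aire-high mTEC, and Itga8 at most 37.6 and 28.9 CPM, in interstitial-type fibroblasts. Itgb5 had 6.77 and 4.00 CPM in endothelium and 93.4 and 101 CPM in mural cells (log2 fold -3.94, SE 0.52, adjusted p = 0.000161). Itgav had 22.6 and 20.0 CPM in endothelium and 66.7 and 70.7 CPM in mural cells (log2 fold -1.55, adjusted p = 0.0187), and was not called without the filter, with the stricter gate or with cells low in blood markers. Its level in barcodes under 1000 UMIs was 42.8 and 49.7 CPM. Itga6 had 323 and 528 CPM in endothelium and 33.4 and 121 CPM in mural cells (log2 fold 2.54, adjusted p = 0.00644), with 3.43 and 2.16 in single libraries. Endothelial markers summed to 400.2 and 1455 CPM in mural cells, the higher value in the library with more mural Itga6, and their part in that level was not tested.

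Several vessel genes were not called. Itga1 was 801 and 797 CPM in endothelium and 720.4 and 480.0 CPM in mural cells, above the other 8 classes fitted. Lamb2 was 129 and 76.1 CPM in endothelium and 213 and 273 CPM in mural cells, and Lama5, a chain of vessel walls, 58.7 and 100.1 CPM in endothelium and 26.7 and 45.5 CPM in mural cells. Perlecan, Hspg2, had 314 and 440.3 CPM in endothelium and 80.042 and 136 CPM in mural cells, as the 1 of 18 basement membrane partners called higher, and 5 were lower, led by Egflam, with 0 UMIs in endothelium and 16 in mural cells, and Col4a5, with 0 UMIs in endothelium and 15 in mural cells. Of 22 adaptors Pxn was higher (log2 fold 1.95), and Vcl and Lims1 lower (log2 folds -1.80 and -1.22). Of 19 other ligands 4 were higher, with Icam2, a ligand of Itgal pairs, at 279.8 and 240.2 CPM in endothelium and 0 and 75.8 CPM in mural cells and Jam2 at 334 and 348 CPM in endothelium, against 20.0 and 126 CPM in mural cells, and 6 were lower. Vitronectin, Vtn, had 0 UMIs in endothelium and 58 in mural cells, at least 38.5-fold lower, and periostin, Postn, had 11 UMIs in endothelium and 474 in mural cells.

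**Figure D4:**
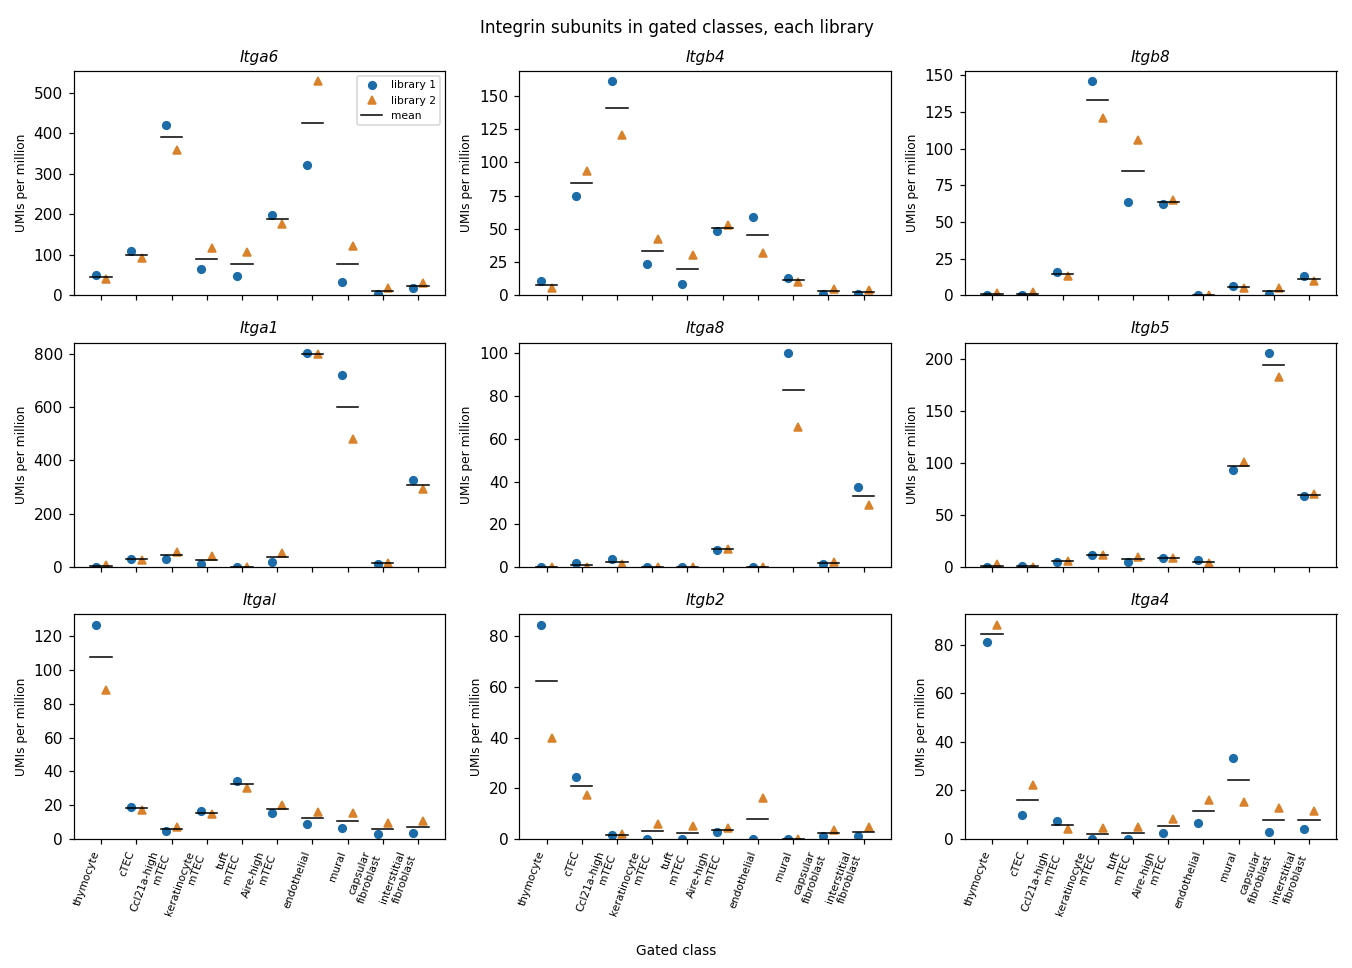
Levels (CPM) of 9 integrin subunits in 10 classes, with circles for library 1, triangles for library 2 and a line for the mean. Itgb8 is highest in keratinocyte-like mTEC, Itga1 in endothelium and mural cells, Itgb5 in capsular-type fibroblasts, and Itgal, Itgb2 and Itga4 in thymocytes.

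Fibroblasts of the capsular type, marked by Pi16 and Dpp4, and of the interstitial type, marked by Cxcl14 and Inmt, differed in matrix receptors. Itgb6, Itga11, Itgb3, Itga9, Itgb5 and Lamb2 were among the genes higher in the capsular type, and Itga1, Itga8 and Itgb8 lower. In all, 7 of 32 genes were higher and 3 lower, beside 12.0% of all genes called, 5.58% higher and 6.40% lower, and the median log2 fold was 0.10, against 0.01 for all genes.

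Itga1 and Itga11, which both bind collagen, ran in opposite directions, and the collagen receptor subunits Itga2 and Itga10 were not called. Itga1 had 12.7 and 17.4 CPM in capsular-type and 325 and 291 CPM in interstitial-type fibroblasts, with a log2 fold of -4.25 (SE 0.49, adjusted p = 1.45e-05). Itga11 had 109.9 and 50.6 CPM in capsular-type and 16.3 and 10.4 CPM in interstitial-type fibroblasts, with a log2 fold of 2.69 (SE 0.32, adjusted p = 5.75e-05). Both types lay apart in both libraries for both genes. Itga8 had 1.72 and 2.59 CPM in capsular-type and 37.6 and 28.9 CPM in interstitial-type fibroblasts (log2 fold -3.87, adjusted p = 3.07e-05). Itga9, which binds tenascin, had 52.5 and 45.4 CPM in capsular-type and 18.0 and 13.4 CPM in interstitial-type fibroblasts (log2 fold 1.79, adjusted p = 0.00109).

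The beta subunits that pair with Itgav also ran both ways. Itgb5 had 206 and 183 CPM in capsular-type and 68.9 and 70.7 CPM in interstitial-type fibroblasts (log2 fold 1.63). Itgb3 had 19.7 and 27.7 CPM in capsular-type and 4.01 and 7.63 CPM in interstitial-type fibroblasts (log2 fold 2.18, adjusted p = 0.00549). Itgb6 had 24 UMIs in capsular-type and 1 in interstitial-type fibroblasts (ratio 38.9, 95% interval 6.35 to 1601). Itgb8 had 1.10 and 4.80 CPM in capsular-type and 12.992 and 9.63 CPM in interstitial-type fibroblasts (log2 fold -2.10, adjusted p = 0.00677), with -2.71 and -0.77 in single libraries. Itgav itself was not called, at 78.8 and 99.0 CPM in capsular-type, against 112.38 and 109 CPM in interstitial-type fibroblasts.

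Of 9 laminins 2 were higher in the capsular type, among them Lamb2, at 201 and 223 CPM in capsular-type and 111.84 and 102 CPM in interstitial-type fibroblasts (log2 fold 1.12). By edgeR 0 were lower, with 0 at an unadjusted p under 0.05 and 0 with DESeq2. Lama2 was 285 and 271 CPM in capsular-type and 319 and 252 CPM in interstitial-type fibroblasts, and their libraries overlapped. The ligands differed strongly: fibronectin, Fn1, had 7607 and 2031 CPM in capsular-type and 40.3 and 51.2 CPM in interstitial-type fibroblasts (log2 fold 6.78), Fbn1 2456 and 1591 CPM in capsular-type, against 417 and 369 CPM in interstitial-type fibroblasts, whereas Vtn had 6.11 and 8.50 CPM in capsular-type, against 108 and 123 CPM in interstitial-type fibroblasts and Mfge8 130.1 and 136 CPM in capsular-type, against 1007 and 792 CPM in interstitial-type fibroblasts. They belonged to 2 higher and 8 lower of 19 ligands. Of 18 basement membrane partners 4 were higher, with Nid1 at 2294 and 2369 CPM in capsular-type and 430.0 and 446 CPM in interstitial-type fibroblasts and Sparc next (log2 fold 1.83), and 6 lower, led by Egflam (log2 fold -4.00) and Sdc1 (log2 fold -3.17). Of 22 adaptors 3 were higher, led by Zyx (log2 fold 2.85) and Ptk2b (log2 fold 1.86), and 2 lower, Cib1 and Lims1 (log2 folds -1.25 and -1.08). Cd151 was the 1 of 4 hemidesmosome partners called, and it was lower (log2 fold -0.67).

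Mesothelial cells, the lining of the thymic surface, numbered 85 in library 1 and 6 in library 2, so their levels are those of library 1 alone, with 95% Poisson intervals for counting error and no test. Itgb3 was 35.4 CPM (interval 25.6 to 47.7) in mesothelium, against 19.7 CPM in capsular-type fibroblasts (interval 16.4 to 23.5). Itgb4 was 34.6 CPM (interval 24.9 to 46.7) in mesothelium, against 1.10 CPM (interval 0.441 to 2.26) in capsular-type fibroblasts, and Itga3 26.3 CPM (interval 18.0 to 37.2), against 0.313 CPM (interval 0.0380 to 1.13). Lamc3, a rare gamma chain, was 35.4 CPM (interval 25.6 to 47.7) in mesothelium, against 11.3 CPM (interval 9.20 to 13.6) in interstitial-type fibroblasts. Lama2 was 32.9 CPM (interval 23.5 to 44.8) in mesothelium and 285 CPM (interval 272 to 298) in capsular-type fibroblasts. These intervals did not overlap for any of these genes, but no rule set in advance chose the genes or their reference class, so this is no test. Mesothelial cells still held fibroblast markers at 15238 CPM in that library.

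Thymocytes left after CD45 depletion carried leukocyte integrins and little laminin RNA. Itga4, Itgb2 and Itgal were higher in thymocytes than in epithelium, and 13 of the 32 genes were lower, among them 7 of 9 laminins. Of all genes 46.8% were called, 20.3% higher and 26.5% lower, and the median log2 fold was -1.43 for the 32, against -0.23 for all genes. By edgeR 0 laminins were higher, with 0 at an unadjusted p under 0.05 and 0 with DESeq2. Scaling by DESeq2 moved the median of all genes in this comparison by -0.11 and gave 3 higher and 16 lower.

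Itga4, which with Itgb1 or Itgb7 binds Vcam1, had 80.9 and 88.1 CPM in thymocytes and 6.55 and 11.5 CPM in epithelium (log2 fold 3.24, SE 0.39, adjusted p = 5.43e-06). Itgal, which with Itgb2 binds Icam1 and Icam2, had 127 and 88.1 CPM in thymocytes and 13.2 and 14.9 CPM in epithelium (log2 fold 2.83, adjusted p = 2.37e-06). Itgb2 had 84.5 and 40.0 CPM in thymocytes and 9.58 and 7.90 CPM in epithelium (log2 fold 3.22, adjusted p = 0.000144). Both thymocyte libraries exceeded both epithelial averages for these genes, by less in library 2 for Itgb2 and Itgal. In barcodes under 1000 UMIs Itga4 was at 185 and 72.1 CPM, above thymocytes in library 1, and Itgal at 56.2 and 59.0 CPM. The Itga4 window, shown because it was the 1 of 23 with both the Sp and the RUNX letters, is chr2:79255176-79255425 on the plus strand (RefSeq, GRCm38.p6).
Itga4: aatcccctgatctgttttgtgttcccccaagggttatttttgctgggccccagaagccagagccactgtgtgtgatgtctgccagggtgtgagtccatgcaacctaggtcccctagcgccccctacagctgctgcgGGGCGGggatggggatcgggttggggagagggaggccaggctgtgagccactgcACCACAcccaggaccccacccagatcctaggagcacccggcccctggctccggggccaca
Capitals mark GGGCGG at bases -114 to -109 and the RUNX letters, on the other strand, at bases -60 to -55 counted from the start site, and the GC content was 64.0%.

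Lama3 had 2 UMIs in thymocytes and 901 in epithelium (ratio of epithelium to thymocytes 136, 95% interval 37.6 to 1126), and Lama5 had 1 UMI in thymocytes and 153 in epithelium (ratio 46.3, 95% interval 8.18 to 1839). Itgb4 had 10.6 and 5.29 CPM in thymocytes and 94.8 and 89.1 CPM in epithelium (log2 fold -3.95, adjusted p = 1.34e-05). Itga3 had 3.52 and 1.85 CPM in thymocytes and 33.5 and 28.8 CPM in epithelium (log2 fold -3.93, adjusted p = 3.18e-05). Itga6 was also lower, at 49.3 and 40.0 CPM in thymocytes, against 243 and 209 CPM in epithelium (log2 fold -2.41). Epithelial markers summed to 398 and 273 CPM in thymocytes, and their part in these low levels was not tested.

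Of 18 basement membrane partners 14 were lower in thymocytes, led by Sdc4 (log2 fold -5.27) and Npnt (log2 fold -4.94). By edgeR 0 of them were higher, with 0 at an unadjusted p under 0.05 and 0 with DESeq2. The 4 hemidesmosome partners were lower, with Col17a1 at 0 UMIs in thymocytes and 346 in epithelium, at least 34.9-fold lower, and Dst at 63.4 and 14.3 CPM in thymocytes and 471 and 389 CPM in epithelium. Of 22 adaptors 5 were higher and 9 lower: Fermt3 had 176 and 125 CPM in thymocytes and 15.5 and 12.2 CPM in epithelium, and Parvg 49.3 and 47.1 CPM in thymocytes, against 4.40 and 4.23 CPM in epithelium, whereas Fermt1 had 4 UMIs in thymocytes and 2005 in epithelium, and Parva had 4 UMIs in thymocytes and 505 in epithelium. Of 19 other ligands 2 were higher, Icam2 (log2 fold 3.57) and Tgfb1 (log2 fold 1.29), and 8 lower, led by Tnc (log2 fold -5.56) and Cdh1 (log2 fold -5.24).

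Some subunits had UMIs in both libraries of each of the 10 classes fitted. In deposited barcodes under 1000 UMIs, Itgb1 was at 118 and 146 CPM, Itgav at 42.8 and 49.7 CPM and Itga6 at 85.6 and 75.0 CPM. Whether these barcodes hold free RNA or small cells was not tested, and levels at or below theirs are not read as expression. They also held Itga4 at 185 and 72.1 CPM, Itgal at 56.2 and 59.0 CPM and Itgb2 at 24.1 and 27.8 CPM. Itga4 in thymocytes of library 1, Itgal in epithelium and tuft-like mTEC, and Itgb2 in cTEC of library 2 lay below these. Of laminins named above as higher, the same barcodes held Lamc1 at 42.8 and 47.7 CPM, Lama4 at 37.5 and 47.5 CPM and Lamb1 at 48.2 and 85.4 CPM. Lamc1 in Ccl21a-high mTEC and in cTEC of library 2 lay below these levels. So did Lama4 in Ccl21a-high mTEC of library 2 and Lamb1 in tuft-like mTEC of library 2. The comparisons above were made without this limit. Itgb1 ranged between 72.2 ± 12.4 CPM in keratinocyte-like mTEC and 709.7 ± 232 CPM in mural cells, and the mural libraries, at 874 and 546 CPM, overlapped with interstitial-type fibroblasts, next in order at 567 and 417 CPM. Itgav ranged between 21.3 ± 1.81 CPM in endothelium and 110.61 ± 2.51 CPM in interstitial-type fibroblasts. Itgav in endothelium, tuft-like mTEC and thymocytes, and in Aire-high and keratinocyte-like mTEC of library 2, lay below its level in those barcodes. Itgb1 in keratinocyte-like mTEC, and in Aire-high mTEC, cTEC and thymocytes of library 2, also lay below its level there. For Itga6 this held in thymocytes and both fibroblast types, and in mural cells, tuft-like and keratinocyte-like mTEC of library 1. Itga6 exceeded 10 CPM in both libraries of 9 classes, with endothelium, at 323 and 528 CPM, and Ccl21a-high mTEC, at 421 and 359.5 CPM, overlapping at the top. Itga5, the fibronectin receptor, was highest in endothelium, at 65.4 and 72.1 CPM, followed by interstitial-type fibroblasts, at 29.0 and 31.1 CPM, and capsular-type fibroblasts, at 30.7 and 26.6 CPM, which did not differ beyond their spread.

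Other genes were near the limit of counting in most classes. Itga10, a cartilage collagen receptor, was 40.0 and 10.1 CPM in mural cells from 6 and 2 UMIs. Itga2b, the platelet alpha subunit, was 14.6 and 1.85 CPM in Aire-high mTEC from 71 and 3 UMIs, so it was high in library 1 alone. Itgb7 reached 10.6 and 7.67 CPM in thymocytes and 9.92 and 2.46 CPM in cTEC, which overlapped. Lamc3 was 11.3 and 6.54 CPM in interstitial-type fibroblasts and 5.34 and 0.617 CPM in Aire-high mTEC. Lama1, the alpha chain of early embryos, was 4.31 and 1.85 CPM in Aire-high mTEC from 21 and 3 UMIs. Of the leukocyte subunits, Itgae was 3.49 and 4.32 CPM in Aire-high mTEC and 0 and 2.65 CPM in thymocytes, Itgad was 3.28 and 0 CPM and Itgax 1.44 and 0 CPM in Aire-high mTEC.

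Chains that assemble with each other had like profiles across the classes for some pairs and not for others. Over the 20 sums (10 classes in 2 libraries, which share depth and each class's cells), Pearson's r of log2 of CPM plus 1 was 0.86 for Itga6 with Itgb4, 0.81 for Lama3 with Lamb3, 0.82 for Lama2 with Lamb2, 0.84 for Lama4 with Lamc1 and 0.63 for Itgal with Itgb2. It was -0.37 for Itga3 with Itgb1, -0.26 for Itgav with Itgb6 and -0.24 for Itga6 with Itgb1. Also negative were Lama5 with Lamc1, at -0.04, and Itgav with Itgb8, at -0.03. Itga4 gave 0.16 with Itgb1 and 0.38 with Itgb7. Itgav with Itgb5 gave 0.46, Itga2b with Itgb3 0.51, Itga8 with Itgb1 0.61 and Itga1 with Itgb1 0.64. Further laminin pairs were Lama2 with Lamb1, at 0.71, Lama2 with Lamc1, at 0.80, and Lamb1 with Lamc1, at 0.70. These are descriptions over few classes. Genes that lie next to each other in the genome could differ: Itga2 (chromosome 13, 114833081 to 114932100, GRCm38) and Itga1 (chromosome 13, 114953096 to 115101964) are 21.0 kb apart, and in capsular-type against interstitial-type fibroblasts Itga1 was lower while Itga2 was not called, at 14.4 and 7.02 CPM in capsular-type and 9.42 and 7.63 CPM in interstitial-type fibroblasts. Of the 37 genes, 3 (Lamb3, Itga1 and Itga6) overlap another annotated gene on the same strand, where reads could be split or lost. All of these overlaps lie nearer the gene's 5' end than its 3' end, and the libraries used 3' chemistry. How many reads fell there was not tested.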

How the data were processed

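Single-cell RNA was measured in 2 libraries of CD45-depleted E2F_M11 thymic stroma. The authors deposited UMI counts per gene and barcode, made with Cell Ranger 6.0.0 per the file headers, and per the submitters' processing notes with mm10, Cell Ranger 7 and Seurat 4. The libraries held 5110 and 19163 barcodes and 41075328 and 42583831 UMIs. Filters removed cells under 500 genes, under 1000 UMIs or over 10% mitochondrial UMIs, and no doublet caller was run. Cells passing more than 1 lineage numbered 48 and 339. A cell took its leading lineage only where its marker level, relative to the threshold, was at least 2 times the next. Otherwise it was left out, so some cells passing more than 1 lineage may remain in the classes.

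Classes came from marker genes summed per 10000 UMIs, with thresholds set after seeing marker levels, not laminin or integrin levels. The keratinocyte threshold and the mesothelial rule were adjusted after seeing cell numbers. Raw counts were summed by class and library and tested with edgeR 4.0.16 in R 4.3.3 (TMM scaling, filterByExpr, quasi-likelihood test, library as a block, 9 residual degrees of freedom), with Benjamini-Hochberg adjustment over 13723 genes. The library block was used because each library holds every class. Because no label says that the libraries came from separate animals, p-values measure only the spread between these libraries, which may be technical. A gene at 0 was given a limit of 3 UMIs over the group, and intervals (95%, exact Poisson or binomial) cover counting error only.

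In each comparison up to 5 called genes each way were named by size of log2 fold, and up to 2 each way from each partner list, provided both libraries moved alike; other genes are given as levels, or were chosen after their values were seen. The values of 1 gene found by the rule are not reported here, though it counts in the totals. The genes and lists were chosen with earlier results of these data known. Krt5 and Krt14 are class markers and were not tested. DESeq2 1.42.0, no filter, no library block, stricter, looser and purer gates, a minimum of 2000 UMIs and each library alone were tried as alternatives. Positions are from GENCODE vM21 (GRCm38) and promoter windows from RefSeq (GRCm38.p6).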

Additional observations from a re-analysis of the deposited data

How the results depend on the processing

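Over 61 named results, 432 alternative values were computed: 412 kept their direction and side of the threshold, 20 were no longer called and 0 reversed, and 52 results held in every alternative run. The count of all genes called between capsular-type and interstitial-type fibroblasts was 922 with the purer gate, against 1644, in a fit with 2 residual degrees of freedom and 8480 genes. Lost calls numbered 6 with DESeq2, 4 with the stricter gate, 4 with cells low in blood markers, 3 without the filter, 2 without the block and 1 with the looser gate, and 0 with a minimum of 2000 UMIs. The alternative with blood markers at most 10 per 10000 UMIs was chosen after seeing the data. Without the replicate block, 59 results kept their call, and the genes called numbered 24 of 32 for epithelium against fibroblasts (23 with it), 8 for cTEC against mTEC (9), 14 for Ccl21a-high against Aire-high mTEC (15), 4 for keratinocyte-like mTEC (5), 11 for tuft-like mTEC (11), 5 for endothelium (5), 9 for capsular-type fibroblasts (10) and 16 for thymocytes (16). Each library alone left no residual degrees of freedom, so it gave log2 folds (prior count 2) and no calls. Not run were the mesothelial test, with 6 cells in library 2, and the purer gate outside fibroblasts, where classes became too small. Among the 10 classes fitted, mural cells held the fewest UMIs, 149922 and 197907, and their counts set the widest limits.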
